A study of Mus musculus with 6 samples.

Results

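The interferon regulatory factors (IRFs) are a family of transcription factors, and 8 of their genes were examined here: Irf1, Irf2, Irf3, Irf4, Irf5, Irf7, Irf8 and Irf9. They were taken as the rows with those symbols among the 22905 genes of the count table. The rule uses no measured value, but the family was picked with earlier results of these data in view. All 8 passed the filter on low counts that left 14439 genes for testing. The libraries were RNA-seq of primary hepatic stellate cells, the vitamin A storing cells of the liver that turn into matrix-producing myofibroblasts after injury. Every mouse had the genotype BucheKI/KI-Hep, and every mouse was treated with CCL4, a liver toxin. The series' design text names butyrylcholinesterase overexpression in hepatocytes. Reads of its gene, given below, were lower in every PBS library than in any DOX library. By label, the groups differed only in PBS (3 libraries) or DOX (3 libraries). Every sample title also carries S2W, which the labels do not explain. The sources used here do not give age, the promoter that drives expression or the number of animals behind a library. P-values therefore reflect only how much these libraries vary, which may be technical.

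IRF proteins bind DNA elements with repeated GAAA, the interferon-stimulated response element (ISRE). IRF3 and IRF7, and in myeloid cells IRF5, are phosphorylated by kinases below sensors of nucleic acids and switch on interferon and cytokine genes. IRF9 carries the response to type I interferon to DNA, while IRF1 is induced by interferon gamma, whose early target genes carry a gamma-activated site (GAS), and in turn drives genes of the interferon-gamma response. IRF2 binds the same elements as IRF1 and can oppose it, and IRF4 and IRF8 act with PU.1 in lymphoid and myeloid cells.

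The 250 bases before the start of Irf1, Irf8 and Irf2 are shown because these are the members whose windows held a GAS or ISRE match, and because none of the 3 had overlapping groups below. The second reason does not set them apart. Irf5 and Irf7 also had groups without overlap, and their windows held no match to any motif searched. The sequences are RefSeq's, build GRCm38.p6, read 5′ to 3′ on the plus strand. They lie at chr11:53769764-53770013 (Irf1), chr8:120736108-120736357 (Irf8) and chr8:46739495-46739744 (Irf2). Capitals mark GAS matches and, in Irf2, the first capital run, which is an ISRE match.
Irf1: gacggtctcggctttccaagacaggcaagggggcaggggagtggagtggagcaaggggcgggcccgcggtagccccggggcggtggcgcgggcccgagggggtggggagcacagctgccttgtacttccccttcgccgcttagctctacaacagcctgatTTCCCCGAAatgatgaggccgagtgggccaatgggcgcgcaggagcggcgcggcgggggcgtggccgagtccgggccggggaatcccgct
Irf8: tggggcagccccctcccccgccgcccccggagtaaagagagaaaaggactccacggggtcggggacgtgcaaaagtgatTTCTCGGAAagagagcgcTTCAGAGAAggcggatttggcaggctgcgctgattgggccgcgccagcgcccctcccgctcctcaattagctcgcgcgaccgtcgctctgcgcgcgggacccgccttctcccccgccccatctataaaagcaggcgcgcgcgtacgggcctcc
Irf2: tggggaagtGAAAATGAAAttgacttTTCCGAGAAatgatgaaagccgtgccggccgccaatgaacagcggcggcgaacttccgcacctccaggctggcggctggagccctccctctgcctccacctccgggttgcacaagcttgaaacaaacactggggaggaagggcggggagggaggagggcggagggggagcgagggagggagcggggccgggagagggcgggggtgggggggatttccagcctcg
The letters searched, on both strands, were GAAANNGAAA for the ISRE, TTCNNNGAA for the GAS and GGGANNNNCC for the kappaB motif of NF-kappaB. Windows ran from 250 bases before to 50 bases after each start, and RefSeq gave 11 such windows for the 8 members. The Irf1 GAS match, TTCCCCGAA, lay at bases -90 to -82 from the start, and a kappaB match on the other strand lay at -13 to -4. Irf8 held GAS matches at -171 to -163 (TTCTCGGAA) and at -153 to -145 (TTCAGAGAA), with kappaB matches at -58 to -49 and, past the start, at 10 to 19. Irf2 held an ISRE match at -241 to -232 (GAAAATGAAA) and a GAS match at -224 to -216 (TTCCGAGAA), which do not overlap. Among the other members only Irf4 held any of these letters, a kappaB match at -182 to -173. Of the 11 member windows, 1 held the ISRE letters, 3 the GAS letters and 3 the kappaB letters. Over all 32817 windows of the RefSeq table, 3.43% held the ISRE letters, 8.29% the GAS letters and 20.7% the kappaB letters. A match describes the letters and does not show a bound site.

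Some features of the libraries bear on these genes. Total counts lay between 36220282 and 37707364 per library, and 3 reads, the most that a count of 0 leaves possible, came to 0.0758 to 0.0878 CPM, counting error only. CPM are the usual counts per unit of sequencing depth, with no division by gene length. Bche, the gene of butyrylcholinesterase, had 8, 26 and 14 reads in PBS and 1225, 582 and 3639 in DOX. The summed CPM of 14 hepatocyte markers was 302 to 602 in PBS and 1155, 475 and 4158 in the DOX libraries in the same order. Their part in the Bche reads was not tested. Of 15 markers of quiescent stellate cells (summed CPM 655 to 1471 in PBS, 799 to 1263 in DOX) and 11 of myofibroblasts (942 to 1575, 1133 to 1509), none was at 0 in every library. The most abundant were Dcn, Ecm1, Spp1 and Col3a1. The other marker lists show further cell types in these libraries, with 20 macrophage markers (most abundant Mpeg1 and Lyz2) at 4634 to 6447 CPM in PBS and 7896 to 13673 in DOX, and 14 endothelial markers (Cdh5, Pecam1) at 6757 to 8270 and 5899 to 7053. In every library the macrophage and the endothelial sums were each above the sums of both stellate cell lists. Sums over different genes do not give shares of cells, and the levels below are not those of stellate cells alone. In bulk RNA, fewer cells of a type and less RNA per cell cannot be told apart.

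Irf1 was the only member past the threshold, an adjusted p of 0.05 in edgeR's quasi-likelihood test with Benjamini-Hochberg adjustment over all 14439 genes tested. It rose 3.31-fold in DOX. Of the 8 members, 1 was called higher, against 4.38% of all genes tested, and 0 lower, against 2.04%. At an unadjusted p under 0.05, 5 members were higher and 0 lower, against 15.9% and 12.7% of all genes tested. DESeq2 called 5 members higher and 0 lower, against 11.3% and 6.36% of the 14908 genes it tested. In Irf1, Irf2, Irf5, Irf7 and Irf8, 5 of 8, all DOX libraries lay above all PBS libraries in CPM, a pattern found in 16.9% of genes tested. The reverse order, found in 17.7% of genes, occurred in 0 of 8. The members' median log2 fold change was 0.59, beside -0.01 for all genes tested. The 3 remaining members, Irf3, Irf4 and Irf9, had log2 fold changes between -0.08 and 0.04.

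**Figure D1:**
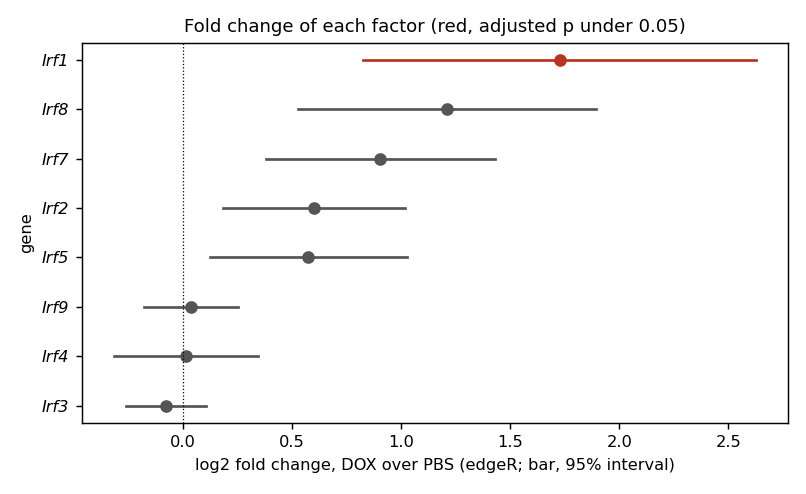
Log2 fold change, DOX over PBS, of each of the 8 genes from edgeR, ordered by size, with bars for the 95% interval and red for an adjusted p under 0.05. The intervals of Irf1, Irf8, Irf7, Irf2 and Irf5 lie above 0, and those of Irf9, Irf4 and Irf3 include it.

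Irf1 (chr11:53770014-53778374, plus strand, GRCm38 by GENCODE M21) encodes an activator that interferon gamma induces. It stood at 340, 199 and 166 CPM in PBS and at 961, 943 and 432 CPM in DOX. DOX replicates 1 and 2 were high together, DOX replicate 3 was under their level, and the groups did not overlap. PBS averaged 235 ± 92.4 CPM and DOX 778 ± 300.5 CPM (SD, n = 3 each). The edgeR log2 fold change was 1.73 with an SE of 0.38 and a 95% interval of 0.83 to 2.63 (edgeR quasi-likelihood test, Benjamini-Hochberg adjusted p = 0.0462). The call was lost without any 1 of 4 libraries. In the same edgeR test, leaving out PBS replicate 2 gave an adjusted p of 0.135, PBS replicate 3 gave 0.142, DOX replicate 1 gave 0.139 and DOX replicate 2 gave 0.0908. The log2 fold change stayed between 1.53 and 2.09 in every fit that left out 1 library. Where PBS replicate 2 or PBS replicate 3 was left out, edgeR called no gene at all, although 3294 and 3092 genes, 4 of them members each time, had an unadjusted p under 0.05.

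Irf2 (chr8:46739732-46847458, plus strand), whose product competes with IRF1 for the same elements, had 58.1, 43.0 and 40.0 CPM in PBS and 83.0, 70.8 and 59.9 CPM in DOX. The groups did not overlap, but PBS replicate 1 lay close below DOX replicate 3. The log2 fold change was 0.60 with an SE of 0.18 (95% interval 0.18 to 1.02, edgeR adjusted p = 0.0843). With 1 library left out, that edgeR adjusted p was 0.0463 without PBS replicate 1 and between 0.0702 and 0.222 in the other fits. Per length, in FPKM, the ratio of Irf1 to Irf2 was 21.8, 17.2 and 15.5 in PBS and 43.1, 49.6 and 26.8 in DOX. The ratio was higher in all 3 DOX libraries than in any PBS library, by 2.15-fold (a log2 difference of 1.10). The exact two-sided permutation test over libraries gave p = 0.1, the smallest that 3 against 3 can give, and 0.1 after adjustment over the 2 ratios tested.

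Irf3 and Irf7 encode the factors that are phosphorylated below the nucleic acid sensors, the first made constitutively and the second inducible by interferon. Irf7 (chr7:141262706-141266481, minus strand) had 1127, 745 and 709 CPM in PBS and 1957, 1464 and 1411 CPM in DOX. PBS replicate 1 and DOX replicate 1 were the high libraries of their groups, and the groups did not overlap. PBS averaged 860 ± 231 CPM and DOX 1610 ± 301 CPM (SD, n = 3 each). The difference on the log2 scale was 0.90 with an SE of 0.22 and an interval of 0.38 to 1.43 (edgeR adjusted p = 0.0565), so Irf7 missed the threshold narrowly. With 1 library left out, its edgeR adjusted p was 0.0325 without PBS replicate 1 and between 0.0681 and 0.171 in the other fits. Irf3 (chr7:44997648-45002848, plus strand) had 45.3, 45.7 and 43.5 CPM in PBS and 41.8, 41.5 and 44.2 CPM in DOX. These overlapped, at a log2 fold change of -0.08 with an SE of 0.08 (95% interval -0.26 to 0.11, edgeR adjusted p = 0.548). On the FPKM scale, which scales by library totals alone, Irf3 was 18.3, 19.1 and 18.2 in PBS and 15.2, 15.4 and 17.6 in DOX, without overlap. Per length the ratio of Irf7 to Irf3 was 32.5, 21.3 and 21.3 in PBS and 61.3, 46.2 and 41.8 in DOX, 2.00-fold higher with every DOX library above every PBS library (exact two-sided permutation p = 0.1, the smallest possible, adjusted 0.1).

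Irf5 (chr6:29526625-29541871, plus strand), which drives inflammatory cytokine genes in macrophages below MyD88, had 119, 86.3 and 71.0 CPM in PBS and 152, 138 and 122 CPM in DOX. PBS replicate 1 came within a few CPM of DOX replicate 3, and the groups did not overlap. The log2 fold change was 0.58 with an SE of 0.19 (95% interval 0.12 to 1.03, edgeR adjusted p = 0.107). Without PBS replicate 1 the edgeR adjusted p was 0.0373, and it lay between 0.112 and 0.263 when another library was left out.

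Irf8 and Irf4 encode the lineage factors that pair with PU.1. Irf8 (chr8:120736358-120756694, plus strand), needed for monocyte and dendritic cell development, had 167, 158 and 137 CPM in PBS and 482, 383 and 205 CPM in DOX. The PBS libraries lay close together, the DOX libraries spread widely, and the groups did not overlap. PBS averaged 154 ± 15.6 CPM and DOX 356 ± 140 CPM (SD, n = 3 each). The difference on the log2 scale was 1.21 with an SE of 0.29 and an interval of 0.53 to 1.90 (edgeR adjusted p = 0.0535). Irf8 was past the threshold without DOX replicate 3 (log2 fold change 1.49, edgeR adjusted p = 0.0126), and the edgeR adjusted p lay between 0.0914 and 0.165 when any other library was left out. Irf4 (chr13:30749226-30766976, plus strand), a factor of lymphocytes, plasma cells and some dendritic cells, was the member of lowest level, at 10.2, 8.35 and 8.84 CPM in PBS and 9.01, 9.27 and 9.36 CPM in DOX. The groups overlapped, with a log2 fold change of 0.01 and an SE of 0.14 (95% interval -0.32 to 0.34, edgeR adjusted p = 0.958).

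Irf9 (chr14:55603571-55610030, plus strand), a DNA-binding factor of the type I interferon response, had 216, 184 and 192 CPM in PBS and 198, 202 and 208 CPM in DOX. The DOX values lay inside the PBS range, at a log2 fold change of 0.04 with an SE of 0.09 (95% interval -0.18 to 0.25, edgeR adjusted p = 0.820). The sign for Irf9 and Irf4 turned negative when libraries were scaled by their totals alone (-0.085 and -0.11), a scaling that moved the median of all genes from -0.01 to -0.14. Exons of Irf9 share 123 bases with Rnf31 on the same strand, and exons of Irf1, Irf3, Irf5 and Irf7 share 135, 88, 411 and 45 bases with genes on the opposite strand. No source used here says if the strand entered the counting, so reads of the shared stretches cannot be assigned with certainty.

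**Figure D2:**
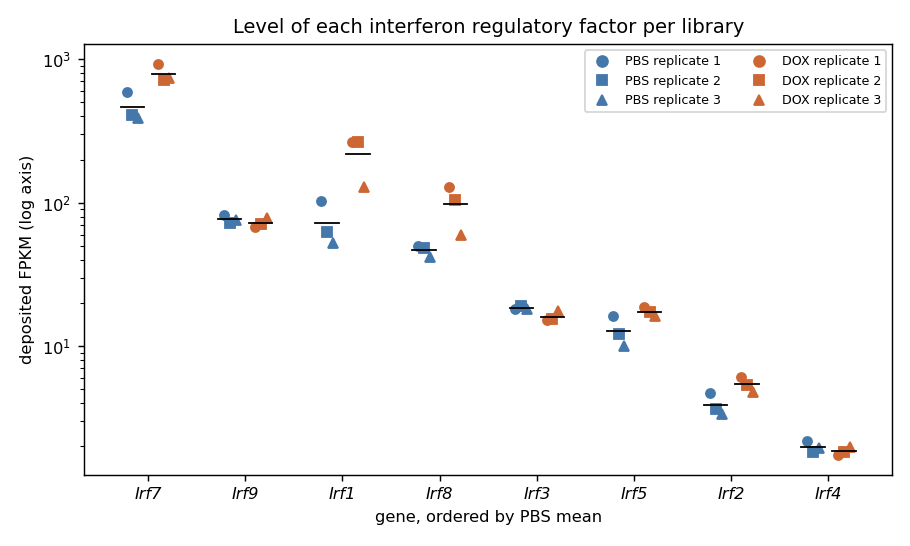
Deposited FPKM (log axis) of each gene in each library, ordered by the PBS mean, with blue for PBS, orange for DOX, marker shapes for replicates and bars for group means. Irf7 is the highest gene in all 6 libraries and Irf4 and Irf2 are the lowest.

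Per length, the order of levels in PBS ran from Irf7 (mean 463 FPKM) through Irf9 (76.6), Irf1 (72.7), Irf8 (46.7), Irf3 (18.5), Irf5 (12.8) and Irf2 (3.91) to Irf4 (1.99). Neighbours in that order did not overlap, except Irf9 and Irf1. In DOX the order was Irf7 (794 FPKM), Irf1 (219), Irf8 (98.1), Irf9 (72.2), Irf5 (17.4), Irf3 (16.1), Irf2 (5.42) and Irf4 (1.84). There Irf8 overlapped Irf9, and Irf5 overlapped Irf3. On this scale Irf1 stood beside Irf9 in PBS and above every member but Irf7 in DOX. The share of Irf1 in the FPKM summed over the 8 genes was 8.84% to 11.9% in PBS and 12.4% to 22.2% in DOX, and that of Irf7 was 64.9% to 68.3% and 59.8% to 70.5%. The orders, shares and levels of the ratios rest on the gene lengths that the deposited FPKM imply. Those lengths were 12519, 7512 and 1934 bases for Irf2, Irf5 and Irf7, against 7396, 2905 and 3776 exonic bases in GENCODE M21. For Irf8 and Irf9 they were 3435 and 2688 bases, against 7055 and 5386. An order by exonic bases was not computed and could differ.

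**Figure D3:**
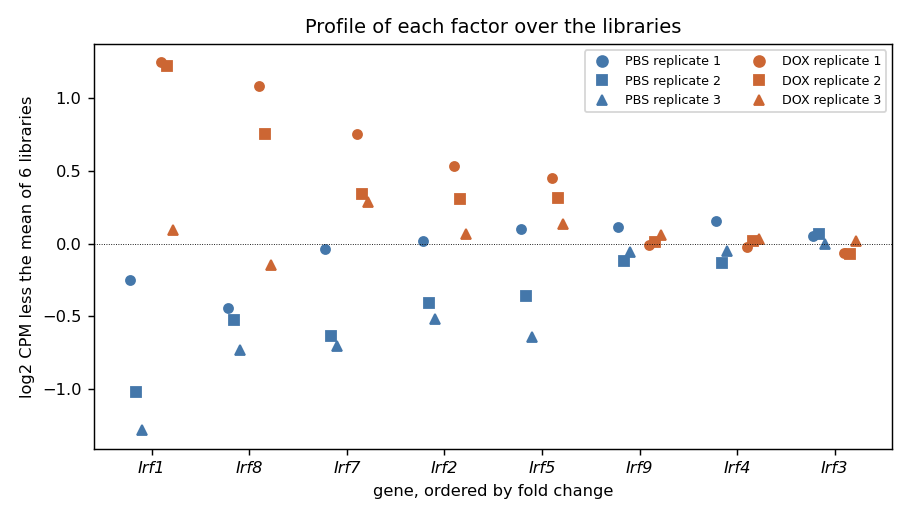
Log2 CPM of each gene less its mean over the 6 libraries (prior count 2), one point per library, with genes ordered by fold change. In Irf1, DOX replicates 1 and 2 lie well above DOX replicate 3, and Irf9, Irf4 and Irf3 stay near 0 in every library.

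Over the 6 libraries, the profiles of Irf2 and Irf5 were close to each other, with a mean absolute difference of 0.069 in log2 CPM centred on each gene's mean. Irf9 and Irf4 differed by 0.017, both being nearly flat. Among 9765 tested genes with a mean of at least 5 CPM, the 3 nearest to Irf1 by that measure were Iigp1 (0.069), Gbp2 (0.089) and Gbp5 (0.12), which encode interferon-inducible GTPases. Iigp1 averaged 598 ± 219 CPM over the PBS libraries and 1943 ± 684 CPM over the DOX libraries (SD, n = 3 each). Gbp2 stood at 854 ± 283 and 2719 ± 991 CPM, and Gbp5 at 164 ± 78.1 and 631 ± 236 CPM. Because they were picked for a profile like that of Irf1, their group difference follows from the choice, and the distances and levels are a description.

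The summed level of several leukocyte marker lists was also higher in DOX. Of the 20 macrophage markers 8 were called higher by edgeR, and the sums were 6447, 6297 and 4634 CPM in PBS and 13673, 7896 and 9703 CPM in DOX, without overlap. The sums of 8 Kupffer cell markers (Marco, Cd5l) were 1021 to 3136 and 3474 to 6384 CPM, those of 8 monocyte markers (Itgal, Plac8) 220 to 321 and 599 to 856 CPM, those of 10 neutrophil markers (Csf3r, S100a8) 27.1 to 57.3 and 113 to 154 CPM, and those of 8 natural killer cell markers (Gzmb, Gzma) 1.69 to 8.40 and 45.5 to 120 CPM. None of these 4 sums overlapped between the groups. Of the markers tested, edgeR called 0 of 8 higher for Kupffer cells and 2 of 8 for monocytes. For neutrophils it called 4 of 5 higher, and for natural killer cells 4 of 6, beside 4.38% of all genes tested. The other neutrophil and natural killer cell markers did not pass the filter. Of the Kupffer cell markers, 5 were higher at an unadjusted p under 0.05 in edgeR, DESeq2 called 4 higher and limma-voom 1. The sums of 10 conventional dendritic cell markers (Fscn1, Ccr7) were 284 to 341 CPM in PBS and 326 to 350 CPM in DOX, with overlap. Fscn1, the most abundant, was not called (185 and 151 CPM), whereas Ccr7 rose 4.08-fold (edgeR adjusted p = 0.0200) and Flt3, chosen for mention after its values were seen, rose 4.32-fold (0.0346). Ccr7 and Flt3 were the only 2 of the 9 tested conventional dendritic cell markers that edgeR called. No other marker of that list had an unadjusted p under 0.05 in either direction. Those of 9 plasmacytoid dendritic cell markers (Bst2, Tcf4) were 734 to 932 and 951 to 990 CPM, without overlap. Bst2, with 575 and 713 CPM the largest part of that sum, is also in the list of antiviral interferon response genes and was not called, nor was Tcf4, while 5 of the 9 were called higher. Markers of T cells (Il7r, Lck) summed to 44.5 to 145 CPM in PBS and 52.9 to 96.4 CPM in DOX. Those of B and plasma cells (Sdc1, Xbp1) summed to 245 to 453 and 315 to 391 CPM. Markers of cholangiocytes (Spp1, Krt19) gave 299 to 655 and 511 to 645 CPM, and all 3 sums overlapped. Single genes weigh heavily in the last 2 sums. In PBS replicate 1, Sdc1 was 336 of 453 CPM, and Spp1, also in the myofibroblast list, was 639 of 655 CPM. Krt19 was not called, but all its DOX libraries lay above all its PBS libraries. EdgeR still called 1 of 9 tested T cell markers, 1 of 6 B and plasma cell markers and 1 of 6 cholangiocyte markers higher. At an unadjusted p under 0.05, 6, 3 and 2 of them were higher, and DESeq2 called 5, 3 and 1 higher. In these 3 lists 0 markers were called lower by edgeR or DESeq2. Of the 14 hepatocyte markers, edgeR called 0, 12 were higher at an unadjusted p under 0.05 and DESeq2 called 7 higher. Of the 14 endothelial markers, edgeR called 1 lower and 0 higher. At an unadjusted p under 0.05, 5 endothelial markers were lower and 1 higher, and DESeq2 gave the same counts. No listed marker in the table was at 0 in all libraries.

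Set against the macrophage markers, the members differed from each other. Per 1000 CPM of summed macrophage markers, Irf1 had 52.7, 31.6 and 35.8 CPM in PBS and 70.3, 119 and 44.5 CPM in DOX. DOX replicate 3 lay below PBS replicate 1, so the groups overlapped, with a ratio of means of 1.95. Irf7 had 175, 118 and 153 in PBS and 143, 185 and 145 in DOX, a ratio of 1.06 with overlap. Irf8 had 25.9, 25.0 and 29.5 in PBS and 35.2, 48.4 and 21.1 in DOX, a ratio of 1.30, and its groups overlapped too. Irf2 and Irf5 had ratios of 0.867 and 0.866 with overlap, whereas Irf9 (0.590), Irf4 (0.581) and Irf3 (0.543) lay lower in every DOX library than in any PBS library. Which cells carried the transcripts was not tested.

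**Figure D4:**
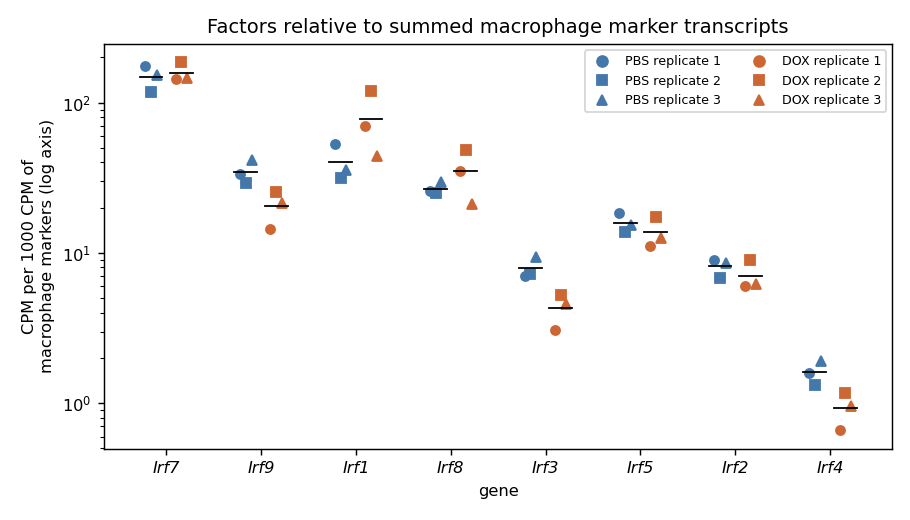
CPM of each gene per 1000 CPM of summed macrophage markers (log axis), one point per library, with bars for group means. Irf7, Irf1, Irf8, Irf5 and Irf2 overlap between PBS and DOX on this scale, and every DOX point of Irf9, Irf3 and Irf4 lies below every PBS point.

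The genes around the IRFs were grouped into lists by role. Upstream, interferon gamma (Ifng), the T and natural killer cell cytokine, had 25, 11 and 8 reads in PBS and 251, 167 and 46 reads in DOX, without overlap. It rose by a log2 fold change of 3.52 with an SE of 0.74 (edgeR adjusted p = 0.0425), at levels of 0.202 to 0.663 CPM in PBS and 1.26 to 7.35 CPM in DOX. That call was lost in every edgeR fit that left out 1 library, except without DOX replicate 3, and in limma-voom and the 3 limma fits on FPKM. Ifng was the only one of 5 interferon ligand genes in the table to pass the filter. Ifnb1, the fibroblast type I interferon, had 13, 10 and 9 reads in PBS and 2, 7 and 3 in DOX, was chosen for mention after its values were seen, and was not tested. Of 5 tested interferon receptor genes 0 were called by edgeR or limma-voom, 3 were higher at an unadjusted p under 0.05 and DESeq2 called 2 higher. Their median log2 fold change was 0.26, with Ifnar2 at 159 ± 11.3 and 230 ± 31.2 CPM (edgeR adjusted p = 0.0505) and Il10rb at 151 ± 28.4 and 174 ± 3.81 CPM (SD, n = 3 each).

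Between receptor and nucleus, 2 of 14 genes of the JAK-STAT relay and its inhibitors rose, with a median log2 fold change of 0.40. They were Ptpn6 (1.23, edgeR adjusted p = 0.0367), a phosphatase of blood cells that dampens JAK signals, and Socs3 (1.17, 0.0443), a feedback inhibitor. In that list 12 of 14 genes had a positive log2 fold change, the largest, 1.88, in a gene that was not called. Of 29 genes of nucleic acid sensing and the kinases upstream of IRF3, IRF5 and IRF7, 7 rose, with a median of 0.44. The 4 with the lowest p were Ikbke (log2 fold change 1.47, edgeR adjusted p = 0.0247), an IRF3 and IRF7 kinase, Sting1 (1.10, 0.0278), the adaptor for cytosolic DNA, Tasl (1.97, 0.0296), which recruits IRF5 below endosomal receptors, and Myd88 (0.81, 0.0310), the adaptor of Toll-like receptors. Of 22 partners, cofactors and turnover factors of IRF proteins 5 rose, with a median of 0.24. Among them Batf2 (2.41, edgeR adjusted p = 0.0332) and Batf (0.80, 0.0382) are AP-1 family partners of IRF proteins, Spib (2.33, 0.0374) is a relative of PU.1, and Lyn (0.83, 0.0410) encodes a kinase that restrains IRF5. The calls, 2 of 14, 7 of 29 and 5 of 22, stand beside the 4.38% of all genes called higher. DESeq2 called 6, 14 and 8 of them higher (11.3% of all genes), and 8, 17 and 9 were higher at an unadjusted p under 0.05 (15.9%). No gene of these 3 lists was called lower by edgeR, limma-voom or DESeq2, and 1 of the partners had an unadjusted p under 0.05 in that direction. Without DOX replicate 1 none of the 3 lists had a call. The counts for relay, sensing and partners were 0, 3 and 0 without DOX replicate 2. Leaving out PBS replicate 1 gave 5, 11 and 3, and leaving out DOX replicate 3 gave 4, 5 and 8.

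Downstream, 4 lists of target genes were read beside the 48.6% of all tested genes (7022 of 14439) with a positive log2 fold change. Of 34 interferon-gamma response genes that need IRF1, 15 rose and 0 fell, 34 had a positive log2 fold change (33 under scaling by library totals alone), and 26 had every DOX library above every PBS library. Over all genes tested 4.38% rose and 16.9% had that order of libraries. The list's median log2 fold change was 1.14. Il27 (3.60, edgeR adjusted p = 0.0206), a cytokine of myeloid cells, went from 0.875, 0.890 and 0.758 CPM in PBS to 12.4, 13.9 and 4.47 CPM in DOX. Il18bp (1.53, 0.0240), the decoy of interleukin 18, Casp1 (1.07, 0.0258), the inflammasome protease, and Cybb (0.95, 0.0326), the catalytic part of the phagocyte oxidase, were the next by p. The summed level of the list was 15923, 10669 and 10310 CPM in PBS and 28911, 28886 and 17888 CPM in DOX, with DOX replicate 3 again the low library of its group. Leaving out DOX replicate 1 left 0 edgeR calls, with DOX replicate 2 left out there were 3, and leaving out PBS replicate 1 gave 25. DESeq2 called 28.

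Of 32 antiviral genes of the type I interferon response, 1 rose and 0 fell by edgeR, although 14 were higher at an unadjusted p under 0.05 (15.9% of all genes tested) and DESeq2 called 11 higher (11.3%). All 32 had a positive log2 fold change, with a median of 0.45. The gene called was Ddx60 (2.00-fold higher, edgeR adjusted p = 0.0240), a helicase that aids RNA sensing, at 59.8, 57.8 and 46.0 CPM in PBS and 127, 105 and 95.7 CPM in DOX. The summed level was 20127, 11543 and 12679 CPM in PBS and 21823, 20630 and 18799 CPM in DOX. PBS replicate 1 lay inside the DOX range. Rsad2, the antiviral enzyme viperin and the most abundant gene of the list, chosen for mention after its values were seen, was at 3164 CPM in that library, above every DOX library (2361 to 2541 CPM). Without PBS replicate 1, edgeR called 22 of the 32 genes.

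The list for IRF8 or IRF4 with PU.1 had 22 tested genes, of which 9 rose and 0 fell (4.38% and 2.04% of all genes tested), with a median of 0.85. Il18 (log2 fold change 2.41, edgeR adjusted p = 0.0200), a cytokine, Arg1 (4.09, 0.0206), an arginase of hepatocytes and of alternatively activated macrophages, Ctsc (1.61, 0.0275), a lysosomal protease, and Prdm1 (1.57, 0.0277), the repressor BLIMP-1, had the lowest p. The list shares 3 genes with the macrophage markers (Ctss, Csf1r and Mpeg1), Chil3 with the monocyte markers and Zbtb46 with the conventional dendritic cell markers. It shares Cybb and Il12b with the interferon-gamma response list, so the call of Cybb counts in both. Il12b is also in the IRF5 list below, which shares Cxcl10 with the interferon-gamma response list. For IRF8 or IRF4 the calls numbered 2 with DOX replicate 1 left out, 5 with DOX replicate 2 left out and 6 with PBS replicate 1 left out. Of 10 cytokine genes regulated by IRF5, 5 rose and 0 fell, with a median of 1.06. The 4 with the lowest p were Il1b (2.60) and Tnf (1.62), both at an edgeR adjusted p of 0.0200, Ccl4 (1.42, 0.0241) and Ccl3 (0.96, 0.0360), cytokines and chemokines of activated macrophages. The calls numbered 2 without DOX replicate 1 and 3 without DOX replicate 2. In both lists edgeR, DESeq2 and limma-voom called 0 genes lower, and 0 had an unadjusted p under 0.05 in that direction. The part of the macrophage, natural killer cell and hepatocyte markers, whose sums are given above, in any of these lists was not tested.

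**Figure D5:**
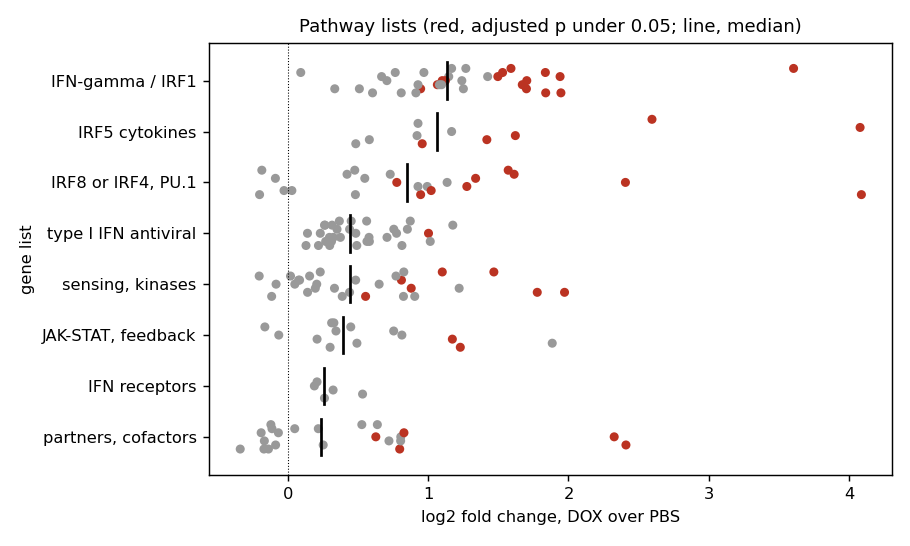
Log2 fold change, DOX over PBS, of each tested gene in 8 lists around the interferon regulatory factors, with red for an adjusted p under 0.05 in edgeR and a black line at each list's median (points are spread vertically only for legibility). The medians run from 0.24 for partners and cofactors to 1.14 for the interferon-gamma response genes that need IRF1.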

How the data were processed

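Per the labels' protocols, total RNA was isolated with an RNeasy kit and sequenced from SMARTER mRNA-Seq libraries. The authors deposited raw read counts per gene symbol, 1 column per library, and FPKM for the same genes. Counts divided by FPKM and library total gave 1 length per gene (largest relative spread 2.65e-06), so the deposited FPKM is the same measurement scaled by length and library total. The submitters' processing notes name the builds GRCm38, mm10 and hg38 without saying what each was used for. The aligner and counting tool are not given here by any label or file header.

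Groups and replicate numbers came from sample titles. Chi-square statistics per degree of freedom between replicates (34.3 to 73.4) showed distinct libraries. Counts were tested with edgeR 4.0.16 (glmQLFTest, TMM, filterByExpr with minimum count 10 and total 15, group as the only term, R 4.3.3), two-sided, with Benjamini-Hochberg adjustment over 14439 genes. Adjusted p-values come from this edgeR fit, save where a sentence names another tool. The SE came from the F statistic, and ± is the SD of 3 libraries. CPM uses TMM-scaled totals (factors 0.923 to 1.06), and the common biological coefficient of variation was 0.230. The code was tested on simulated data. Alternatives were DESeq2 1.42.0, limma 3.58.1 (voom, and log2(FPKM + 1 or 0.1)), other scalings and filters, a robust fit, a replicate block and leaving out each library.

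The members and gene lists were chosen with earlier results of these data known, so list counts are descriptions and were given no test of their own. Genes named are the 8 members, the up to 4 called genes of lowest p in each pathway list (or the 2 most abundant where none was called), the 2 most abundant of each marker list, the 3 nearest to each called member, and Bche. Genes shared between lists are also named. Ifnb1, Rsad2 and Flt3 lie outside this rule and are marked where they appear. Listed symbols were matched to the table through reference tables of gene names (3 by an older symbol). Ddx58 was not matched and is not analysed here. Promoter sequences are from RefSeq (GRCm38.p6), and positions and overlaps are from GENCODE M21 (GRCm38).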

Additional observations from a re-analysis of the deposited data

How the results depend on the processing

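The count of members called higher (1) was 2 with scaling by library totals, 3 with no filter on low counts, 5 with DESeq2, 4 with the replicate block and 0 with limma on log2(FPKM + 1) or log2(FPKM + 0.1), where 6 members had an unadjusted p under 0.05. It ranged from 0 to 4 when 1 library was left out. The count of members called lower was 0 in every setting. The Irf1 call held in 12 of 18 alternatives, and its adjusted p was 0.101 and 0.0863 in the 2 limma fits. Over all genes, 632 were called higher and 294 lower. Higher calls numbered 1681 with DESeq2, 19 and 64 with limma at pseudocounts of 1 and 0.1, and 0 to 722 with 1 library left out. Lower calls numbered 730 with library totals, 948 with DESeq2, 159 with the replicate block, 11, 27 and 678 with limma (pseudocount 1, 0.1, and 1 after a filter of 1 FPKM in 3 samples), and 0 to 368 with 1 library left out. The cause of these shifts was not tested.

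The Irf4 log2 fold change (0.01) turned to -0.0080 with upper-quartile factors, -0.11 with library totals, -0.071 with limma at a pseudocount of 1 with or without the filter and -0.10 at 0.1, and ranged from -0.047 to 0.098 with 1 library left out. That of Irf9 (0.04) turned to -0.085 with library totals, -0.084 with limma at a pseudocount of 1 with or without the filter and -0.086 at 0.1, and ranged from -0.012 to 0.10. The other 6 members kept their sign in all 18 alternatives. The log2 differences of the 2 ratios ranged from 0.92 to 1.36 (Irf1 to Irf2) and 0.84 to 1.20 (Irf7 to Irf3) with 1 library left out. Deviations of same-numbered libraries from their group means had correlations of 0.095, -0.11 and 0.23, and not every library correlated best with its own number, so the numbers were not taken as pairs. With the replicate block Irf1, Irf2, Irf7 and Irf8 were called (edgeR adjusted p 0.0349 for Irf2, 0.0267 for Irf7 and 0.0428 for Irf8). The lowest count of any member in any library was 308. For Irf1, Irf2, Irf5, Irf7 and Irf8, with 3 libraries a group, the spread between libraries limits the comparison more than counting error does. That does not hold for Irf4 in DOX, whose libraries had 308, 329 and 343 reads and 9.21 ± 0.18 CPM.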
